A study of Mus musculus with 27 samples.

Results

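Interferon-stimulated genes are the genes that cells switch on when an interferon reaches them. In this work they were a list of 43 mouse genes, taken by gene name from the expression table of intestinal RNA, with the OAS genes kept out. All 43 had a row in the table of 55401 genes, and 42 passed a filter of at least 1 FPKM (a level corrected for gene length and library depth) in at least 3 libraries, as did 11118 genes in all. The member below the filter was Gbp4, a guanylate-binding protein gene, which reached at most 0.776 FPKM in any library. The list was described by role, as sensors of RNA and DNA, transcription factors, antiviral effectors, the ISG15 and ADP-ribosylation genes, interferon-inducible GTPases and a remainder.

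The animals were wild-type male C57BL/6 mice aged 6 to 8 weeks, exposed to gamma rays at 72 R per minute or not, and intestine was taken. CBLB502 is a shortened bacterial flagellin that activates the receptor TLR5 and is known as a radiation protector. Mice had 0.2 mg/kg injected into the abdomen, and for 15 Gy the design text places it 0.5 h before exposure. The 9 groups of 3 libraries were 15 Gy with CBLB502 at 24 h, 6 Gy with CBLB502 at 24 h, 15 Gy at 6 h, 24 h and 3 d, 6 Gy at 6 h and 24 h, CBLB502 alone at 24 h, and control. The sample labels call the control untreated, whereas the design text names a buffer control, so the handling of these mice is uncertain. The design text counts 7 groups of 10 mice, and no label says which mouse or how many mice a library came from. The p-values therefore measure the spread between libraries, which may be partly technical.

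Interferons of type I and type III signal through different receptors to the kinases Jak1 and Tyk2, which activate Stat2 within a complex that holds Irf9 and binds a short DNA element, the interferon-stimulated response element (ISRE), in front of its target genes. Interferon gamma, the type II interferon, acts through Jak1 and Jak2 on a different element, the gamma-activated site (GAS). In the gut, epithelial cells respond mainly to type III interferons, the lambda interferons, whose receptor pairs Ifnlr1 with Il10rb. Many of the induced proteins block viral replication, some sense viral nucleic acid, and a few, such as Usp18, dampen the signal.

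The promoters of the members hold these elements unevenly. A RefSeq window of the 250 bases before the annotated start was found for 32 of the 43 members on build GRCm38.p6. The ISRE core was searched as 2 copies of GAAA with any 2 bases between them or, for the other strand, 2 copies of TTTC spaced alike. It was present for 14 of the 32 members (43.8%) and for 936 of all 27025 genes with a window (3.46%). All 6 GTPases with a window held it, as did 5 of 9 antiviral effectors, 1 of 5 transcription factors and 0 of 3 sensors. The GAS core TTCNNNGAA, which reads the same on both strands, was present for 9 of 32 members (28.1%) and for 8.13% of all genes with a window. Both cores were found for 4 members, and an ISRE match overlapped a GAS match in 1 of the 40 member windows. A match is a run of letters, not a shown binding site.

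The windows below are those of the members with an ISRE match among 24 chosen by role and by adjusted p against control. They are printed 5′ to 3′ on the strand of the gene, ending at the base before the start, with the ISRE matches in capitals.
Gbp2: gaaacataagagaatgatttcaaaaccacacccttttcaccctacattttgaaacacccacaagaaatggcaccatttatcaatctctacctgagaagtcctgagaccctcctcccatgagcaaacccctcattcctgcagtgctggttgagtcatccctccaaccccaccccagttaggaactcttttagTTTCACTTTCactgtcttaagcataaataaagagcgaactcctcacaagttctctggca
Igtp: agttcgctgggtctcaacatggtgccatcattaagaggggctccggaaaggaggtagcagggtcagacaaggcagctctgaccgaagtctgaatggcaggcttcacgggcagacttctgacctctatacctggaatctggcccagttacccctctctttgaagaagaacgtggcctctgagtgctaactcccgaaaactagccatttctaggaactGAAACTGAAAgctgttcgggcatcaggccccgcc
Ifit1: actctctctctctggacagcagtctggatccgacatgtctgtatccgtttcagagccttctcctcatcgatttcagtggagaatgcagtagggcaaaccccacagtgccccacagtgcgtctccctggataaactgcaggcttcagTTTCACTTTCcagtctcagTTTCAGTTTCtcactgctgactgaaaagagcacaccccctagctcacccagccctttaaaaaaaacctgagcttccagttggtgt
Isg15: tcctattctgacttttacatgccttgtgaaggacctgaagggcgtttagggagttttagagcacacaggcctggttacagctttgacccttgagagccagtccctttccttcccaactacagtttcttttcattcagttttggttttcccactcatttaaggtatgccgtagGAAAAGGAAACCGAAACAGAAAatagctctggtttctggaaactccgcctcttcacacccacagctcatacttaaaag
Irgm1: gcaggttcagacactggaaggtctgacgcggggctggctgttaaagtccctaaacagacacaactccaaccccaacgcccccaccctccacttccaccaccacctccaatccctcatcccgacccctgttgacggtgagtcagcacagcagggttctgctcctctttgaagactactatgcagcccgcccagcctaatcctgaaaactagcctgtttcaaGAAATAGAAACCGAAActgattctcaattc
Irgm2: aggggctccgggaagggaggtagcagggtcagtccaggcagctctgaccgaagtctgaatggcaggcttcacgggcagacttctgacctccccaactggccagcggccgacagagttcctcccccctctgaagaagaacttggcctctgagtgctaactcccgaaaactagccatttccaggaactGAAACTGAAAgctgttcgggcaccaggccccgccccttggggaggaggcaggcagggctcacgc
Stat2: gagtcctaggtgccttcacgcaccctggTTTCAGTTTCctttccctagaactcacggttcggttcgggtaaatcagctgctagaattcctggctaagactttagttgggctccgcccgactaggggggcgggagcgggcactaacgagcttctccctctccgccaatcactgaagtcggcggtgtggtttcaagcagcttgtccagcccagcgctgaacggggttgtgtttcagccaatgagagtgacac

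These windows lie at chr3:142620413-142620662 for Gbp2, chr11:58199306-58199555 for Igtp, chr19:34640639-34640888 for Ifit1 and chr10:128270248-128270497 for Stat2, all on the plus strand. Those of Isg15 at chr4:156200819-156201068 and Irgm1 at chr11:48871421-48871670 are on the minus strand, and that of Irgm2 at chr11:58214727-58214976 is on the plus strand. The match began 59 bases before the start of Gbp2 and 34 bases before that of Igtp. Ifit1 had 2 matches, at 104 and 85 bases, and Isg15 had 3 overlapping ones. The windows of Igtp and Irgm2, neighbouring genes, share a run of 55 bases, which lies outside the match. The letters of the ISRE core were not in the windows of Slfn4, Slfn2, Samd9l and Lgals3bp, and no window was used for Zbp1.

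Positions of the members named most often are given on GRCm38, as in the table. Slfn4 (ENSMUSG00000000204) lies on chromosome 11 from 83175186 to 83190216 and Slfn2 (ENSMUSG00000072620) from 83065112 to 83070678 on the same chromosome. Gbp2 (ENSMUSG00000028270) lies on chromosome 3 from 142620602 to 142638008, and Zbp1 (ENSMUSG00000027514) on chromosome 2 from 173206612 to 173218923. Samd9l (ENSMUSG00000047735) lies on chromosome 6 from 3372257 to 3399572, Eif2ak2 (ENSMUSG00000024079) on chromosome 17 from 78852564 to 78882573 and Lgals3bp (ENSMUSG00000033880) on chromosome 11 from 118392751 to 118402092.

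Library totals ran from 57.4 to 87.1 M counts, and libraries of a group differed by far more than counting error (chi-square per degree of freedom 143 to 1270). The tissue label was matched by the markers of absorptive enterocytes, of which 10 of 10 passed the filter. The 6 libraries taken 24 h after 6 Gy, with or without CBLB502, stood apart from the rest. Their 10 pancreatic enzyme genes summed to 62.9 to 6220 CPM, against 4.1 to 6.19 CPM in control, and their 6 fibroblast genes to 30.4 to 44.1 CPM, against 0.562 to 3.07 CPM. Of the 6 fibroblast genes 2 passed the filter. CPM here means counts scaled to a common library total by TMM, which corrects for differences in composition between libraries. In tissue RNA, fewer cells of a type and less RNA per cell cannot be told apart. A clock score set apart other groups. It sets the clock genes Arntl, Npas2 and Nfil3 against Dbp, Per1, Per2, Per3, Cry2 and Tef, as a difference of their mean log2 CPM, set to a mean of 0 over all libraries, and averaged -2.46 ± 0.87 (SD, n = 3) at 15 Gy 6 h, 2.51 ± 0.61 at 6 Gy 6 h and -2.58 ± 0.36 in control.

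Per length of gene, the levels of the members spanned a wide range. Isg15, a ubiquitin-like modifier, had the highest mean over all 27 libraries at 167 FPKM, followed by the secreted glycoprotein gene Lgals3bp at 133 FPKM and Ifi35 at 65.6 FPKM. The transcription factor gene Irf1 stood at 43.4 FPKM, Ifit1, which binds foreign RNA ends, at 42.5 FPKM and the GTPase gene Igtp at 42.3 FPKM. At the low end were Isg20 at 1.02 FPKM, Gbp6 at 0.998 FPKM, Ifit2 at 0.899 FPKM and Gbp4 at 0.347 FPKM. The gap between the highest and the lowest group mean, in CPM, was widest for Slfn4 (53.5-fold), Ifit2 (18.8-fold), Gbp2 (15.2-fold), Zbp1 (9.32-fold) and Slfn2 (8.12-fold). It was narrowest for Ddx58, the RNA sensor RIG-I, at 1.41-fold.

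The groups with the highest levels were 6 Gy at 6 h and 15 Gy at 3 d. Each held the highest group mean of 16 of the 43 members. The lowest mean lay at 6 Gy with CBLB502 for 10 members, at 15 Gy 6 h for 10 and at 15 Gy 24 h for 10. The matching shares over all genes are not given here, so these counts only describe the members. A score over the 42 members, the mean of log2 CPM minus the gene's own mean, was taken for each library. It was 0.99, 0.55 and 0.50 at 6 Gy 6 h and 1.17, 0.34 and 0.13 at 15 Gy 3 d, against 0.16, 0.04 and 0.69 in control. At 15 Gy 6 h it was -0.70, -0.73 and 0.39, and at 15 Gy 24 h -0.05, -0.54 and -0.77. For 6 Gy with CBLB502 the score was -0.35, -0.43 and -0.73, and for 6 Gy 24 h -0.08, -0.45 and 0.48. With CBLB502 alone it was 0.12, -0.39 and -0.30, and for 15 Gy with CBLB502 0.07, 0.31 and -0.42. Single libraries stood far from their group, namely replicate 1 at 15 Gy 3 d, replicate 3 at 15 Gy 6 h, replicate 3 at 6 Gy 24 h and replicate 3 of control.

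**Figure D1:**
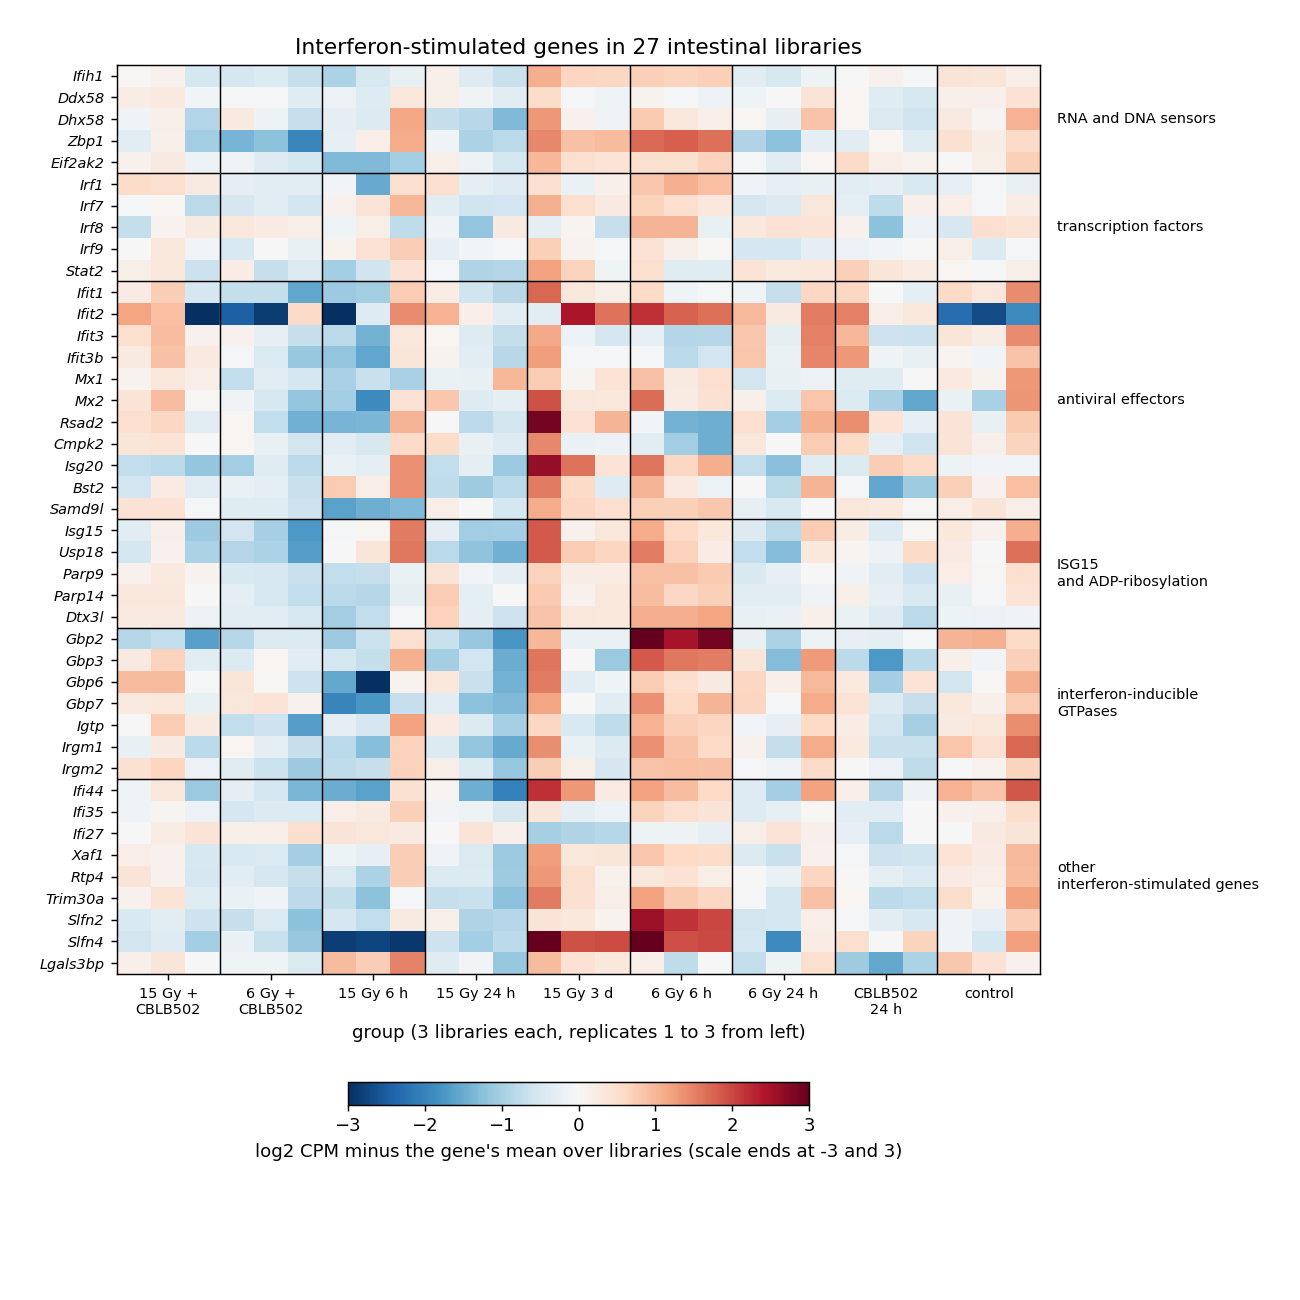
Level of 42 interferon-stimulated genes (rows, by role) in 27 libraries (columns, 3 per group), as log2 CPM minus the mean of each gene over all libraries, from low (blue) to high (red). The 3 libraries of 6 Gy 6 h are above the mean for all 7 GTPases, and replicate 1 of 15 Gy 3 d and replicate 3 of 15 Gy 6 h differ from the other libraries of their groups.

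At 6 h after 6 Gy, 9 members rose and 1 fell against control. A gene counted as called where the adjusted p of edgeR's quasi-likelihood test over 11118 genes was under 0.05, and members are said to have risen or fallen where this held. In this comparison 28.4% of all genes tested were called, 13.1% higher and 15.3% lower, so the share of members called in either direction was not above the background. The members that rose were the sensor Zbp1, the transcription factor Irf1, the effector Ifit2, all of Dtx3l, Parp9 and Parp14, the GTPase Gbp2, and Slfn2 and Slfn4. The median log2 fold change of the 42 members was 0.21, and that of all genes was 0.05.

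Slfn4 and Slfn2 belong to the Schlafen family, known in mice for roles in immune cell growth. Slfn4 had 346, 89.1 and 93.1 CPM at 6 Gy 6 h, against 21.8, 16.3 and 54.5 CPM in control (log2 fold change 2.51 ± 0.58 SE, edgeR adjusted p = 0.00258). Slfn2 had 200, 150 and 134 CPM, against 30.9, 28.3 and 55.7 CPM in control (2.07 ± 0.33, edgeR adjusted p = 6.76e-05). For both genes all irradiated libraries lay above all control libraries. Gbp2, a GTPase that attacks the membranes of intracellular microbes, had 34.6, 24.2 and 32 CPM at 6 Gy 6 h, against 8.81, 9.17 and 6.6 CPM in control (1.88 ± 0.38, edgeR adjusted p = 0.000845). Zbp1, which senses Z-form nucleic acid and can start necroptosis, had 291, 307 and 283 CPM, against 123, 104 and 134 CPM (1.29 ± 0.33, edgeR adjusted p = 0.00553). Neither gene's groups overlapped.

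Irf1, a transcription factor induced chiefly by interferon gamma, had 308, 364 and 324 CPM at 6 Gy 6 h, against 147, 166 and 150 CPM in control (1.11 ± 0.30, edgeR adjusted p = 0.00849). Dtx3l, a ubiquitin ligase that works as a pair with Parp9, had 194, 195 and 208 CPM, against 82.1, 80.9 and 85.5 CPM (1.26 ± 0.27, edgeR adjusted p = 0.00127). The irradiated libraries were all higher and lay close together in both cases. Parp9 rose by 0.58 ± 0.19 (edgeR adjusted p = 0.0228) and Parp14 by 0.68 ± 0.24 (edgeR adjusted p = 0.0423) on the log2 scale. Dtx3l and Parp9 lie on opposite strands and overlap by 682 bases, and the strand setting of the counting is not given in the sources used here, so reads of the pair may be shared. The same holds for Slfn2 and the antisense gene Gm20234. Ifit2, an RNA-binding effector, had 10.2, 7.6 and 6.94 CPM, against 0.432, 0.321 and 0.566 CPM (4.23 ± 1.15, edgeR adjusted p = 0.00821). Its level was low in every group, and no control library reached the 1 FPKM of the filter (0.0654 to 0.114 FPKM). Ifit2 passed the filter only through libraries of other groups, so its higher calls against control are a description.

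Of the 11 effectors, Ifit2 was the member that rose. Cmpk2, a mitochondrial nucleotide kinase, fell, with 40.2, 24.9 and 18.6 CPM at 6 Gy 6 h, against 67.2, 57.1 and 81.9 CPM in control (-1.30 ± 0.42, edgeR adjusted p = 0.0241). Rsad2, the neighbour of Cmpk2 that makes an antiviral nucleotide, had 26.4, 10.4 and 10.1 CPM, against 36.6, 23.9 and 48.2 CPM, and was not called. Isg15 had 239, 163 and 136 CPM at 6 Gy 6 h, against 136, 121 and 231 CPM in control, and its groups overlapped. By role, 3 of 5 ISG15 and ADP-ribosylation genes rose, as did 2 of 9 remaining genes and 1 each of 5 sensors, 5 transcription factors, 11 effectors and 7 GTPases. The count was 8 or 9 when any 1 library was left out. Unless said otherwise, shares of all genes belong to the main fit of all 27 libraries and not to such other fits.

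At 6 h after 15 Gy, 11 members fell and 1 rose against control, while 29.0% of all genes were called (12.2% higher, 16.8% lower). The median log2 fold change of the members was -0.43, and that of all genes was 0.02. Samd9l, an effector that restricts protein synthesis, had 26.5, 29.4 and 32.4 CPM at 15 Gy 6 h, against 93.3, 106 and 93.7 CPM in control (-1.73 ± 0.19, edgeR adjusted p = 1e-06). Eif2ak2, the kinase PKR that senses double-stranded RNA, had 15.9, 16 and 19.6 CPM, against 39.9, 45.1 and 65.7 CPM (-1.55 ± 0.21, edgeR adjusted p = 1.41e-05). Slfn4 had 3.28, 3.44 and 3.14 CPM, against 21.8, 16.3 and 54.5 CPM (-3.23 ± 0.61, edgeR adjusted p = 0.000422). In these 3 genes every irradiated library lay below every control library, and the irradiated libraries were close to each other. No library of 15 Gy 6 h reached the filter for Slfn4 (0.655 to 0.697 FPKM), so its lower call is a description.

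Mx1, a dynamin-like GTPase gene, had 3.92, 4.82 and 3.89 CPM at 15 Gy 6 h, against 9.52, 8.23 and 19.1 CPM in control (-1.54 ± 0.31, edgeR adjusted p = 0.000835). Ifih1, the RNA sensor MDA5, had 66, 90.9 and 108 CPM, against 164, 164 and 146 CPM (-0.84 ± 0.20, edgeR adjusted p = 0.00306). The groups did not overlap in either gene. Gbp2 had 2.01, 2.78 and 6.05 CPM at 15 Gy 6 h, against 8.81, 9.17 and 6.6 CPM in control (-1.18 ± 0.38, edgeR adjusted p = 0.0234), with replicate 3 close to the lowest control library. Gbp7, Parp9, Parp14, Trim30a and Ifi44 fell as well, by 0.70 to 1.88 on the log2 scale. Gbp7 was under 1 FPKM in every library of 15 Gy 6 h (0.245 to 0.585 FPKM), so its lower call is a description. The member that rose was Irf9, the DNA-binding part of the ISRE complex, with 49.6, 62.5 and 76.3 CPM, against 51.8, 34.3 and 44.3 CPM (0.53 ± 0.19, edgeR adjusted p = 0.045). Its groups overlapped, and the call was lost with the replicate block (edgeR adjusted p = 0.0582), without a filter (edgeR adjusted p = 0.0598), with the compared groups fitted alone (edgeR adjusted p = 0.165), without the 6 libraries that stood apart (edgeR adjusted p = 0.0653) and in 4 of 6 fits with 1 library left out (edgeR adjusted p of 0.0191 to 0.215 over the 6).

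Replicate 3 of 15 Gy 6 h had higher levels of many members than the other 2 libraries of its group, such as 325 CPM of Isg15 beside 107 and 115 CPM. Without it 17 members were called, and 7 without replicate 2 or with the compared groups fitted alone. Gbp4, which could be tested only under other filters, fell too without one, with 1.2, 0.618 and 1.14 CPM at 15 Gy 6 h, against 1.82, 3.4 and 2.15 CPM in control (-1.26 ± 0.34, edgeR adjusted p = 0.0194).

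Set against 6 Gy at the same time, 15 Gy gave lower levels of 16 members and higher levels of 2, where 43.2% of all genes were called (20.2% higher, 23.0% lower). The median log2 fold change of the members was -0.93, and that of all genes was -0.03. Slfn4 had the widest difference, with 3.28, 3.44 and 3.14 CPM at 15 Gy, against 346, 89.1 and 93.1 CPM at 6 Gy (-5.74 ± 0.68, edgeR adjusted p = 9.59e-07). Samd9l had 26.5, 29.4 and 32.4 CPM at 15 Gy, against 132, 134 and 141 CPM at 6 Gy (-2.20 ± 0.19, edgeR adjusted p = 2.01e-08). Eif2ak2 had 15.9, 16 and 19.6 CPM, against 55.6, 56.3 and 64.3 CPM (-1.77 ± 0.21, edgeR adjusted p = 1.2e-06). The doses did not overlap in any of these genes. Slfn4 was below the filter level in every library of 15 Gy 6 h, so its difference is a description.

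Gbp2 was lower at 15 Gy by 3.06 ± 0.40 on the log2 scale (edgeR adjusted p = 3.42e-06), and Slfn2 by 2.53 ± 0.33 (edgeR adjusted p = 3.85e-06). Of the 7 GTPases tested, Gbp2, Gbp3, Gbp7 and Irgm2 were lower, and of the 5 sensors Zbp1, Ifih1 and Eif2ak2 were. The call of Gbp7, below the filter level in every library of 15 Gy 6 h, is a description. The 2 that were higher at 15 Gy were Lgals3bp, with 708, 612 and 1030 CPM, against 422, 216 and 364 CPM at 6 Gy (1.23 ± 0.31, edgeR adjusted p = 0.00294), and the mitochondrial protein gene Ifi27 (0.52 ± 0.16, edgeR adjusted p = 0.0134). Parp9, Parp14, Gbp2 and Slfn4 had risen against control at 6 Gy and fallen at 15 Gy. Each of the 4 was also called between the doses, in a direction that those opposite calls against shared control libraries had already set. Without replicate 3 of 15 Gy 6 h the number called was 27.

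Other measures moved with the same libraries. The clock score was -3.22 to -1.51 at 15 Gy 6 h, against 2.13 to 3.22 at 6 Gy 6 h, and -2.93 to -2.22 in control. The 10 enterocyte markers summed to 150000 to 171000 CPM at 15 Gy 6 h, 54600 to 64400 CPM at 6 Gy 6 h and 112000 to 138000 CPM in control. Mitochondrial transcripts took 6.82 ± 2.22% of counts at 15 Gy 6 h, 19.7 ± 7.94% at 6 Gy 6 h and 14 ± 3.3% in control (SD, n = 3 each). Of 7 neutrophil markers, Ly6g was at 0 at 15 Gy 6 h, had 5.28 to 7.01 CPM at 6 Gy 6 h and was at 0 in control, while Mpo and Elane were at 0 in all 3 groups. That list summed to 0.167 to 0.483 CPM at 15 Gy 6 h, 5.59 to 11.1 CPM at 6 Gy 6 h and 0.386 to 1.14 CPM in control. Of its 7 markers 1 passed the filter. The part of these measures in the differences between members was not tested.

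**Figure D2:**
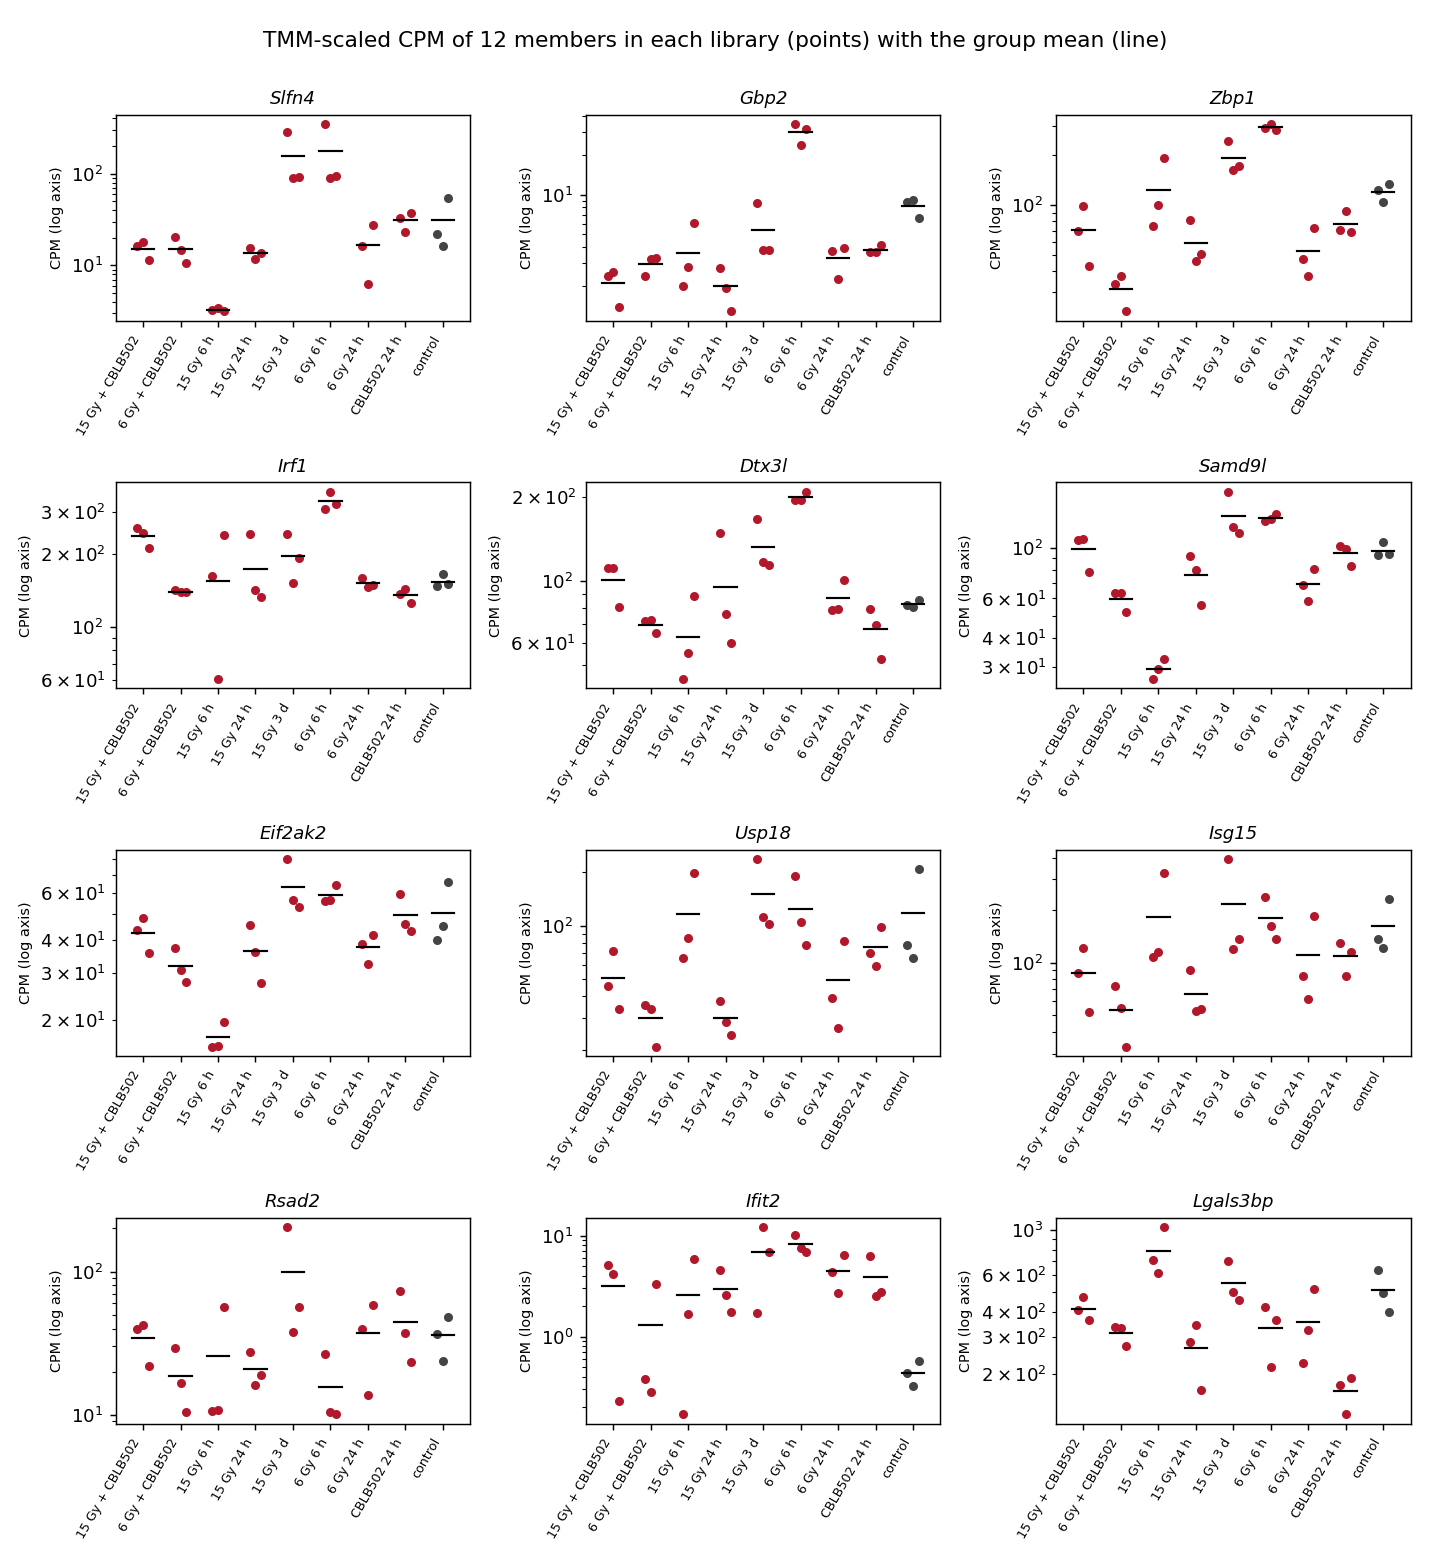
TMM-scaled CPM (log axis) of 12 members in each of 27 libraries (points) with the mean of each group (line), control in grey. The points of Slfn4, Gbp2 and Samd9l at 15 Gy 6 h lie below those at 6 Gy 6 h without overlap, while those of Isg15 and Usp18 spread widely within groups.

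By 24 h after 15 Gy, 4 members had fallen against control and 0 had risen, where 4.94% of all genes were called (2.63% higher, 2.31% lower). The members' median log2 fold change was -0.65, and that of all genes was 0.03. Gbp2 had 2.74, 1.95 and 1.28 CPM at 15 Gy 24 h, against 8.81, 9.17 and 6.6 CPM in control (-2.04 ± 0.39, edgeR adjusted p = 0.00517). No library of 15 Gy 24 h reached the filter for Gbp2 (0.394 to 0.988 FPKM), so this call is a description. Irgm1, a GTPase of autophagy and defence against microbes, had 15.6, 9.12 and 7.31 CPM, against 37.4, 29 and 68.9 CPM (-2.08 ± 0.57, edgeR adjusted p = 0.0383). Usp18, the protease that removes Isg15 from proteins, had 37.5, 28.5 and 24.1 CPM, against 77.7, 66 and 207 CPM (-1.96 ± 0.52, edgeR adjusted p = 0.0342). The fourth was Trim30a (-1.53 ± 0.41, edgeR adjusted p = 0.0358). None of the 4 overlapped with control, which a call on the same libraries makes likely. The share of all genes without overlap is not given here.

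Of the 42 members 38 had a negative log2 fold change. All were measured in the same libraries, so their signs are not separate observations, and the share of all genes is not given here. An unadjusted p under 0.05 was reached by 22 members and by 2403 of 11118 genes. How many were called depended on the method, and the 4.94% of all genes belongs to the main edgeR fit only. DESeq2 called 15 (1 higher and 14 lower), edgeR called 0 with the 6 compared libraries fitted alone, and leaving out 1 library gave 1 to 4, with 1 without replicate 2 or 3 of 15 Gy 24 h or replicate 3 of control and 2 without replicate 1 of control. The 12 T cell markers summed to a lowest, median and highest of 138, 175 and 245 CPM at 15 Gy 24 h, against 247, 451 and 556 CPM in control, and their part in the lower levels was not tested.

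Compared with 6 h at the same dose, 24 h after 15 Gy had 6 members higher and 9 lower, where 32.2% of all genes were called (18.7% higher, 13.5% lower). Samd9l was higher at 92.3, 80.4 and 56 CPM, against 26.5, 29.4 and 32.4 CPM at 6 h (1.37 ± 0.18, edgeR adjusted p = 9.42e-06). Eif2ak2 was higher too, by 1.08 ± 0.21 (edgeR adjusted p = 0.000463), as were Mx1, Slfn4, Parp9 and Parp14. The call of Slfn4, below the filter level in every library of 15 Gy 6 h, is a description. Lower were Usp18, Isg15, Bst2, Lgals3bp, Dhx58, Zbp1, Irf7, Irf9 and Ifi35. Lgals3bp had 284, 344 and 166 CPM at 24 h, against 708, 612 and 1030 CPM at 6 h (-1.57 ± 0.31, edgeR adjusted p = 0.00063), with no overlap. Without replicate 3 of 15 Gy 6 h, 8 members were called, 7 higher and 1 lower, and the members' median log2 fold change was 0.22 in place of -0.23. With the compared groups fitted alone 7 were called, and 18.2% of all genes.

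At 3 d after 15 Gy, many members were higher than at 24 h. Against 24 h, 20 rose and 1 fell, where 25.3% of all genes were called (11.2% higher and 14.1% lower), and the members' median log2 fold change was 1.06 beside 0.01 for all genes. The rise took in 4 of 5 sensors, 2 of 5 transcription factors, 4 of 11 effectors, 2 of 5 ISG15 and ADP-ribosylation genes, 2 of 7 GTPases and 6 of 9 remaining genes. Slfn4 had 287, 88.6 and 91.4 CPM at 3 d, against 15.3, 11.6 and 13.6 CPM at 24 h (3.53 ± 0.61, edgeR adjusted p = 0.000208). Zbp1 had 242, 164 and 173 CPM, against 82, 46.5 and 50.6 CPM (1.69 ± 0.33, edgeR adjusted p = 0.000772). Ifih1 had 268, 198 and 195 CPM, against 141, 97.4 and 79.9 CPM (1.05 ± 0.20, edgeR adjusted p = 0.00049). All 3 d libraries were above all 24 h libraries in these genes. Markers of other cells moved between the same libraries. The 5 endothelial markers summed to 7.98 to 18.1 CPM at 3 d, against 1.08 to 1.11 CPM at 24 h, where Vwf was at 0, and 1.62 to 2.8 CPM in control. The 7 neutrophil markers summed to 0.888 to 2.07 CPM at 3 d, with Mpo and Elane at 0, against 0.107 to 0.719 CPM at 24 h and 0.386 to 1.14 CPM in control, with Ly6g also at 0 in both. Of the 5 endothelial markers 1 passed the filter, as did 1 of the 7 neutrophil markers. Of 10 enterocyte markers 4 were lower at 3 d than at 24 h and 0 higher, with sums of 82000 to 116000 CPM at 3 d, against 111000 to 121000 CPM at 24 h and 112000 to 138000 CPM in control. The clock score was 2.19 ± 0.76 at 3 d, against 1.19 ± 2.55 at 24 h and -2.58 ± 0.36 in control (SD, n = 3 each). The part of these measures in the rise was not tested.

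Isg20, an exonuclease that degrades viral RNA, had 10.1, 5.04 and 2.14 CPM at 3 d, against 0.954, 1.34 and 0.731 CPM at 24 h (2.51 ± 0.51, edgeR adjusted p = 0.000948). No library of 15 Gy 24 h reached the filter for Isg20 (0.298 to 0.639 FPKM), so this call is a description. Isg15 had 391, 120 and 137 CPM at 3 d, against 90.1, 52.9 and 54 CPM at 24 h (1.72 ± 0.52, edgeR adjusted p = 0.0182), and Rsad2 had 205, 37.9 and 57 CPM, against 27.5, 16.2 and 19 CPM (2.26 ± 0.72, edgeR adjusted p = 0.0244). Replicate 1 of 3 d was the highest library in all 3 genes. Without it 9 members were called, with 13 without replicate 3 of 15 Gy 24 h and 10 with the compared groups fitted alone. Ifi27 was the member that fell, with 13.3, 14 and 14.5 CPM at 3 d, against 25.9, 34.4 and 29.3 CPM at 24 h (-1.10 ± 0.16, edgeR adjusted p = 4.94e-05).

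Against control, 15 Gy at 3 d differed in 5 members, 4 higher and 1 lower, where 29.4% of all genes were called (13.9% higher, 15.6% lower). Ifi27 was lower by 1.14 ± 0.17 on the log2 scale (edgeR adjusted p = 2.67e-05), with 26.4, 31.5 and 34.4 CPM in control. Slfn4 was higher (2.33 ± 0.58, edgeR adjusted p = 0.00443), as were Isg20 (1.95 ± 0.50, edgeR adjusted p = 0.00533), Ifit2 (3.97 ± 1.14, edgeR adjusted p = 0.0118) and Samd9l (0.51 ± 0.18, edgeR adjusted p = 0.0389). No control library reached the filter for Isg20 (0.604 to 0.645 FPKM) or Ifit2 (0.0654 to 0.114 FPKM). The higher calls of Isg20 and Ifit2 are therefore a description. None of the 5 called members overlapped with control, which a call on the same libraries makes likely, and the share over all genes is not given here. Without replicate 1 of 15 Gy 3 d the 5 called members were 2 higher and 3 lower, and the members' median log2 fold change was -0.28 in place of 0.19. The T cell markers summed to a lowest, median and highest of 121, 143 and 210 CPM at 3 d, below every control library, with 6 of 8 tested lower and Cd2 at 0. The part of this in the members was not tested.

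**Figure D3:**
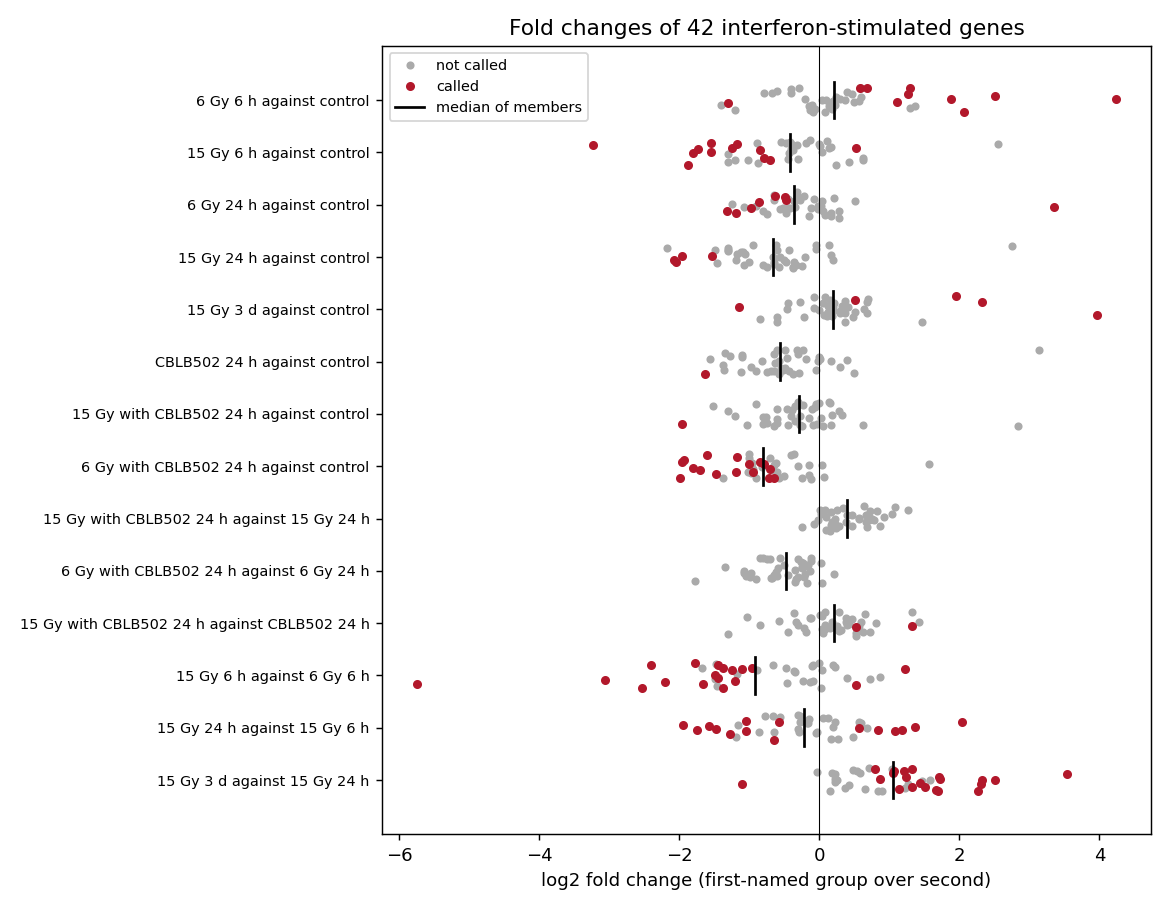
Log2 fold change (horizontal axis, first-named group over second) of each of 42 interferon-stimulated genes in 14 comparisons, red where edgeR's adjusted p was under 0.05 and grey where not, with the median of the members as a black line. The medians run from -0.93 for 15 Gy against 6 Gy at 6 h to 1.06 for 15 Gy at 3 d against 24 h.

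At 24 h after 6 Gy, 7 members fell and 1 rose against control, where 33.0% of all genes were called (16.6% higher, 16.4% lower). Zbp1 had 47.3, 37.7 and 73.4 CPM at 6 Gy 24 h, against 123, 104 and 134 CPM in control (-1.19 ± 0.33, edgeR adjusted p = 0.00942). Gbp2 had 3.73, 2.25 and 3.9 CPM, against 8.81, 9.17 and 6.6 CPM (-1.32 ± 0.38, edgeR adjusted p = 0.012). Ifih1, Mx1, Samd9l, Ifi35 and the apoptosis factor gene Xaf1 fell by 0.47 to 0.97 on the log2 scale. Ifit2 rose, with 4.35, 2.68 and 6.43 CPM, against 0.432, 0.321 and 0.566 CPM (3.35 ± 1.11, edgeR adjusted p = 0.0251). It had passed the filter without any control library, so this call is a description. All 3 libraries of 6 Gy 24 h belong to the 6 that were set apart, and radiation and the other cells these libraries hold cannot be told apart here. The count was 11 without replicate 3 of 6 Gy 24 h, 3 without its replicate 1 or 2 or without replicate 1 of control, and 4 without replicate 3 of control or with the compared groups fitted alone.

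With CBLB502 and 6 Gy, 16 members were lower than in control at 24 h and 0 were higher, where 37.3% of all genes were called (19.8% higher, 17.5% lower). All 3 libraries of this group belong to the 6 that were set apart. The treatments and the other cells these libraries hold cannot be told apart here. The members' median log2 fold change was -0.81, and that of all genes was 0.07. The members that fell were 3 of 5 sensors, 3 of 11 effectors, 3 of 5 ISG15 and ADP-ribosylation genes, 2 of 7 GTPases and 5 of 9 remaining genes, with 0 of 5 transcription factors. Zbp1 had 33.8, 37.8 and 23 CPM at 6 Gy with CBLB502, against 123, 104 and 134 CPM in control (-1.93 ± 0.34, edgeR adjusted p = 0.000266). Usp18 had 35.7, 34 and 20.8 CPM, against 77.7, 66 and 207 CPM (-1.96 ± 0.52, edgeR adjusted p = 0.00625). Isg15 had 73.2, 54.6 and 32.9 CPM, against 136, 121 and 231 CPM (-1.60 ± 0.52, edgeR adjusted p = 0.0192). All treated libraries lay below all control libraries in these genes.

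Igtp had 49, 54.3 and 26.2 CPM at 6 Gy with CBLB502, against 100, 104 and 219 CPM in control (-1.71 ± 0.48, edgeR adjusted p = 0.00893). Igtp and Irgm2 share 7974 bases on the same strand, so their reads may be shared. Ifit1 had 65.1, 64.8 and 36.3 CPM, against 159, 136 and 284 CPM (-1.80 ± 0.53, edgeR adjusted p = 0.0114). Replicate 3 of control was the highest control library for Usp18, Isg15, Igtp and Ifit1, and without it 7 members were called, with 10 without replicate 3 of 6 Gy with CBLB502. In the same libraries the 12 markers of macrophages and dendritic cells summed to 66 to 102 CPM, against 22.3 to 27.7 CPM in control, with 6 of 8 tested higher and Siglech at 0. The enterocyte markers summed to 51300 to 72600 CPM, against 112000 to 138000 CPM. Their part in the lower members was not tested.

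The direct question of what CBLB502 changed after radiation gave no called member at either dose, and 0 of 11118 genes were called by edgeR in either comparison. For 15 Gy, 39 of 42 members had a positive log2 fold change with CBLB502 against 15 Gy alone. Their median was 0.39, beside 0 for all genes, with a range of -0.24 to 1.27. Of the members 5 had an unadjusted p under 0.05, as did 867 of 11118 genes. The scores over the members overlapped, at 0.07, 0.31 and -0.42 with CBLB502 and -0.05, -0.54 and -0.77 without. The smallest p was that of Gbp7, with 7.94, 8.16 and 5.54 CPM with CBLB502, against 5.24, 2.73 and 2.56 CPM without (1.04 ± 0.42, edgeR adjusted p = 0.6). For 6 Gy, 39 of 42 had a negative log2 fold change against 6 Gy alone, with a median of -0.47, beside 0.02 for all genes. Of the members 4 had an unadjusted p under 0.05, as did 303 of 11118 genes. Here too the scores overlapped, at -0.35, -0.43 and -0.73 with CBLB502 and -0.08, -0.45 and 0.48 without. All members were measured in the same libraries, so their signs are not separate observations. The smallest p was that of Ifit3b, which is a near copy of Ifit3 and may share its reads (-1.34 ± 0.53, edgeR adjusted p = 1). Igtp, whose groups did not overlap, had 49, 54.3 and 26.2 CPM with CBLB502, against 77.5, 69.9 and 124 CPM without (-1.07 ± 0.47, edgeR adjusted p = 1). DESeq2 called 0 members in either comparison, with 4 and 7 at an unadjusted p under 0.05, which was not counted over all genes. The 2 doses were not set against each other in a test of this difference.

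With CBLB502 alone, 1 member fell against control at 24 h, where 5.74% of all genes were called (2.48% higher, 3.26% lower). Lgals3bp, which binds galectins and is found in mucus and plasma, had 176, 127 and 191 CPM with CBLB502, against 636, 493 and 400 CPM in control (-1.63 ± 0.31, edgeR adjusted p = 0.00491). Its groups lay far apart. The median log2 fold change of the members was -0.56, beside 0 for all genes, and 36 of 42 were negative. As the members share libraries, their signs are not separate observations. DESeq2 called 8 members (1 higher and 7 lower). Without replicate 3 of CBLB502 alone, edgeR called 2. With 15 Gy, CBLB502 gave 406, 473 and 362 CPM of Lgals3bp, which was higher than with CBLB502 alone (1.33 ± 0.31, edgeR adjusted p = 0.00621), and Ifi27 was higher with overlapping groups (0.53 ± 0.16, edgeR adjusted p = 0.0297), where 17.2% of all genes were called (8.97% higher, 8.19% lower). For this pair DESeq2 called 4 members, and edgeR called 1 without replicate 2 or 3 of 15 Gy with CBLB502 or replicate 2 of CBLB502 alone. The clock score averaged 2.35 ± 1.38 at 15 Gy with CBLB502 and -1.65 ± 1.04 with CBLB502 alone (SD, n = 3 each), and its part was not tested. Against control, 15 Gy with CBLB502 had 1 member called, where 16.9% of all genes were, 8.65% higher and 8.20% lower. That member was Gbp2, with 2.37, 2.56 and 1.39 CPM, against 8.81, 9.17 and 6.6 CPM in control (-1.96 ± 0.39, edgeR adjusted p = 0.00199). No library of 15 Gy with CBLB502 reached the filter for Gbp2 (0.486 to 0.929 FPKM), so this call is a description. DESeq2 called 3 members here, and edgeR called 2 without replicate 3 of 15 Gy with CBLB502.

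The interaction asks whether CBLB502 acted differently with 15 Gy than without radiation. It was called for Lgals3bp (2.28 ± 0.44, edgeR adjusted p = 0.0266), where 0.225% of all genes were called (0.153% higher, 0.0720% lower). At an unadjusted p under 0.05 there were 18 of 42 members, and 1045 of 11118 genes. The interaction was positive for 40 of 42 members, with a median of 0.79 on the log2 scale beside -0.01 for all genes. Here too the signs of members from shared libraries are not separate observations. CBLB502 went with less Lgals3bp in unirradiated mice, while with 15 Gy it had 406, 473 and 362 CPM, against 284, 344 and 166 CPM without (0.64 ± 0.31, edgeR adjusted p = 0.638). The call held in 3 of 12 fits with 1 library left out and was lost with the 4 groups fitted alone (edgeR adjusted p = 0.0991). The clock score averaged 2.35 ± 1.38 at 15 Gy with CBLB502, 1.19 ± 2.55 at 15 Gy 24 h, -1.65 ± 1.04 with CBLB502 alone and -2.58 ± 0.36 in control (SD, n = 3 each). Its part in the interaction was not tested. For 6 Gy the interaction was called for 0 of 42 members by edgeR, where 0.324% of all genes were called (0.243% higher, 0.0809% lower), and for 1 by DESeq2. With edgeR 3 members had an unadjusted p under 0.05, as did 1262 of 11118 genes.

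**Figure D4:**
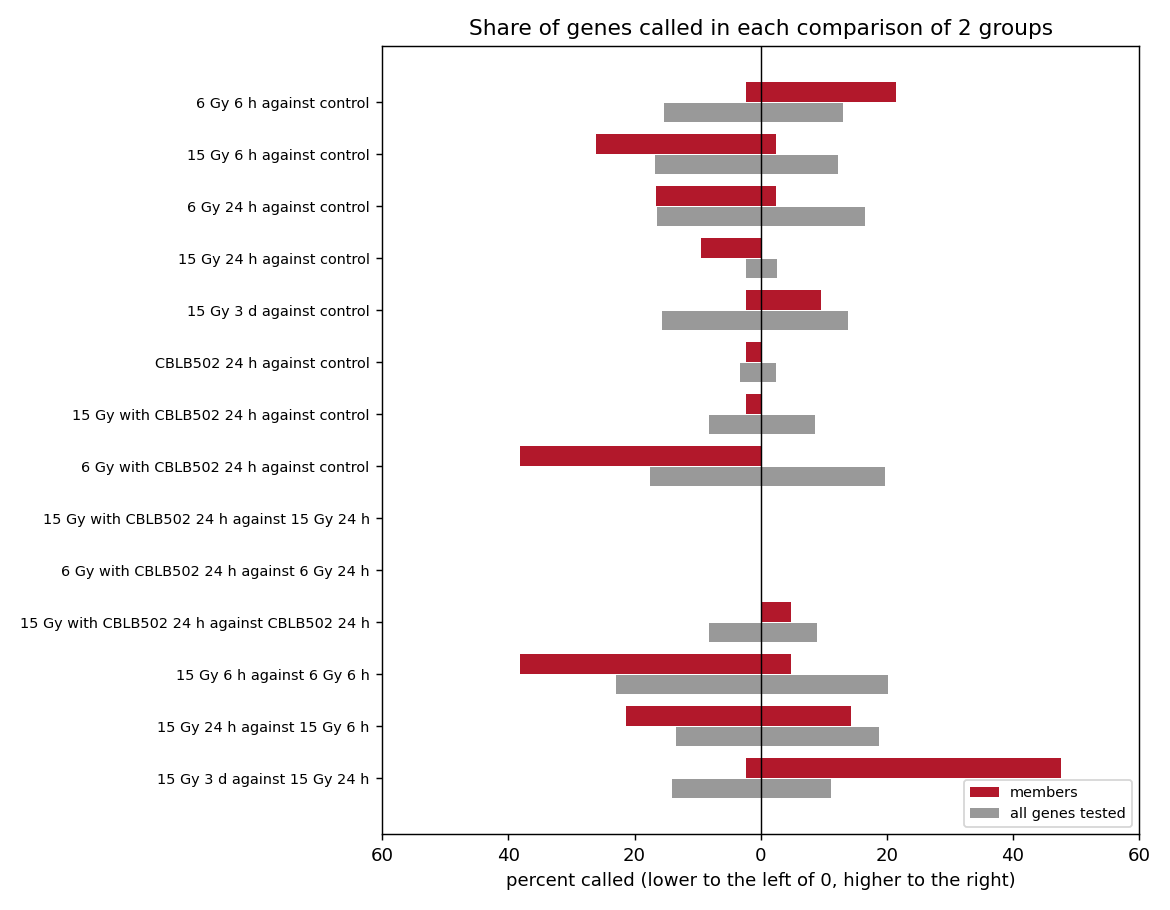
Percent of 42 interferon-stimulated genes (red) and of all 11118 genes tested (grey) called in each of 14 comparisons, lower to the left of 0 and higher to the right. Members exceed the background most at 15 Gy 3 d against 24 h on the higher side and at 6 Gy with CBLB502 against control on the lower side, and 0 were called for CBLB502 with radiation against radiation alone.

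Over the 8 comparisons with control, which share the control libraries, 29 of the 42 members tested were called at least once (69.0%), beside 73.3% of all genes tested. Higher calls were made for 12 members (28.6%, beside 41.2% of all genes) and lower calls for 24 (57.1%, beside 44.9%), with 7 members called in both directions (16.7%, beside 12.7%). Among the members with a higher call, Ifit2 and Isg20 had passed the filter without any control library. Gbp4 was not tested. Gbp2 had 1 higher call, at 6 Gy 6 h, and 5 lower calls.

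The interferon genes themselves were near the limit of detection. None of 9 passed the filter. Ifnb1, the type I interferon gene, had 22, 0 and 0 counts at 15 Gy 3 d and 4, 0 and 0 counts at 15 Gy with CBLB502. Ifng, made by T cells and natural killer cells, had 0 counts in each library of 15 Gy at 24 h and 3 d, against 5, 8 and 14 counts in control. The lambda interferon genes Ifnl2 and Ifnl3 are near-identical, so their counts were summed. They gave 122, 9 and 0 counts at 15 Gy 3 d, 6, 4 and 31 counts at 15 Gy 6 h, and 2, 0 and 32 counts at 6 Gy 24 h. At 6 Gy 6 h, with CBLB502 alone and in control all libraries had 0 counts, which allows up to 0.0141 CPM, 0.0156 CPM and 0.0145 CPM in that order (3 counts over the group, for counting error only).

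Among the 6 receptor genes, the 6 Gy libraries at 24 h had 4 lower than control both with and without CBLB502, namely Ifnar1, Ifngr2, Ifnlr1 and Il10rb. These are the 6 libraries that stood apart, and enterocyte markers were lower in them too. The median log2 fold change against control was -0.56 for receptors and -0.78 for the 10 enterocyte markers at 6 Gy 24 h, and -0.69 and -0.73 for 6 Gy with CBLB502. The enterocyte sums were 58200 to 69200 CPM at 6 Gy 24 h and 51300 to 72600 CPM with CBLB502, against 112000 to 138000 CPM in control, and their part in the receptor levels was not tested. Ifngr2, part of the gamma receptor, had 127, 162 and 133 CPM at 6 Gy 24 h, against 277, 267 and 241 CPM in control (-0.90 ± 0.12, edgeR adjusted p = 5.07e-05). Ifnlr1 of the lambda receptor was lower at 6 Gy 6 h, with 33.8, 28 and 29 CPM, against 45.2, 54.3 and 56.3 CPM (-0.78 ± 0.13, edgeR adjusted p = 7.88e-05). Its libraries lay below all control libraries. At 6 Gy 6 h 9 of 10 enterocyte markers were lower too, with a median log2 fold change of -0.98, and their part was not tested. At 15 Gy 3 d Ifngr1 (0.97 ± 0.20, edgeR adjusted p = 0.000783) and Ifnar2 (0.50 ± 0.16, edgeR adjusted p = 0.0193) were higher and Il10rb was lower (-1.13 ± 0.33, edgeR adjusted p = 0.0135). In that comparison 5 of 10 enterocyte markers were lower and 0 higher, and their part was not tested.

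Of 9 kinase and transcription factor genes outside the list, 8 were tested. At 15 Gy 6 h, 3 of them were higher than control (Tyk2, Stat3 and Irf3) and Jak2 was lower, with 90.6, 134 and 93.7 CPM, against 208, 239 and 165 CPM (-0.94 ± 0.18, edgeR adjusted p = 0.000484). Of 14 genes of nucleic acid sensing 8 were tested, and the adaptor Myd88, which serves the flagellin receptor among others, was higher at 6 Gy 6 h (0.85 ± 0.15, edgeR adjusted p = 0.000191) and at 15 Gy 3 d (0.74 ± 0.15, edgeR adjusted p = 0.00087).

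The 8 negative regulators were all tested. Socs3, an inhibitor of Jak kinases, had 530, 409 and 329 CPM at 6 Gy 6 h, against 182, 193 and 84.4 CPM in control (1.46 ± 0.33, edgeR adjusted p = 0.00217). At 15 Gy with CBLB502 it had 17.1, 14.8 and 28.4 CPM (-2.93 ± 0.35, edgeR adjusted p = 3.46e-05), and at 15 Gy 24 h 59.6, 33.8 and 44.6 CPM (-1.74 ± 0.34, edgeR adjusted p = 0.00533). Low levels of Socs3 were not particular to 15 Gy. It had 38, 50.4 and 34.5 CPM at 6 Gy 24 h and 32.7, 43.2 and 38.8 CPM at 6 Gy with CBLB502. Trex1, which degrades stray DNA, was lower than control at 6 Gy 24 h with CBLB502 (-2.24 ± 0.66, edgeR adjusted p = 0.0115) and without (-1.97 ± 0.65, edgeR adjusted p = 0.0248). Ptpn2, a phosphatase that dampens Jak signalling, was lower at 15 Gy 6 h (-0.92 ± 0.15, edgeR adjusted p = 9.53e-05).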

How the data were processed

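Total RNA of mouse intestine was sequenced in 27 libraries, 3 in each of 9 groups, which were assigned from the sample labels. The authors deposited whole-number read counts and FPKM per gene in a single table, with FPKM of 0 replaced by 0.0001. The submitters' processing notes name Bowtie 0.12.2, HISAT2 2.0, StringTie 1.3.0 and the build mm8. The coordinates in the table match GRCm38 instead, since 51920 of 55141 identifiers (94.2%) have the same position in GENCODE vM21. The strand setting of the counting is not given in the sources used here. Library totals were 57.4 to 87.1 M counts.

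Deposited counts were fitted with edgeR 4.0.16 in R 4.3.3, with TMM scaling, 9 group means and quasi-likelihood F tests. P-values were adjusted by Benjamini-Hochberg over 11118 genes with at least 1 FPKM in at least 3 libraries, and an adjusted p under 0.05 was a call. The test was run on simulated data first. CPM uses the TMM-scaled library total, and scores used a prior count of 2. Intervals are SD over 3 libraries for levels and SE for fold changes. The floor for a group at 0 was 3 counts.

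The members, gene lists, tests and alternatives were chosen with earlier results of these data known. The 24 members chosen by role were up to 4 per role with a mean of at least 2 FPKM in the higher group and the smallest adjusted p against control, and other comparisons name up to 5 called members. Further members were named after their values were seen. Pathway genes were named only when called. The plan was up to 4 per comparison, but some comparisons name more, and not every called pathway gene is named. Alternatives were DESeq2 1.42.0, median-ratio scaling, 2 other filters, a replicate block, the compared groups fitted alone, and leaving out libraries.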

Additional observations from a re-analysis of the deposited data

Results flagged for a closer look

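The effect of CBLB502 on Lgals3bp differed with 15 Gy and without radiation, by an interaction of 2.28 ± 0.44 on the log2 scale (edgeR adjusted p = 0.0266). With 12 single libraries left out in turn it was 2.02 to 2.51, with edgeR adjusted p of 0.0156 to 0.0968, and was called in 3 of 12. DESeq2 gave 2.27 with an adjusted p of 0.000157. The clock score differed between these groups as well, and its part was not tested.

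The difference between 15 Gy and 6 Gy at 6 h was called for 4 members that were higher than control at 6 Gy and lower at 15 Gy. They were picked out by these opposite calls against the same control libraries, which set the direction of the difference, so its values are a description. It was -5.74 for Slfn4, -3.06 for Gbp2, -1.38 for Parp14 and -1.37 for Parp9 on the log2 scale. The clock score and the enterocyte markers differed between the same libraries, and their part was not tested.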

How the results depend on the processing

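Counts of called members stayed within 1.5 times their value in all 16 comparisons under median-ratio scaling and the replicate block, and in 15 with filterByExpr, 13 without a filter, 10 with DESeq2 and 9 with the compared groups fitted alone. No called member changed direction under these settings. With DESeq2 the counts that moved were 15 for 15 Gy 24 h against control, 8 for CBLB502 against control, 3 for 15 Gy with CBLB502 against control, 4 for it against CBLB502, and 2 and 1 for the interactions with 15 Gy and 6 Gy. Fitted alone they were 7 for 15 Gy 24 h against 6 h, 0 for 15 Gy 24 h against control, 10 for 3 d against 24 h, 7 for 15 Gy 6 h, 4 for 6 Gy 24 h and 2 for 15 Gy with CBLB502 against control, and 0 for the interaction with 15 Gy. For 15 Gy 24 h against control the count was 2 with filterByExpr and 2 without a filter. Without a filter it was 5 for 6 Gy 24 h against control and 1 for 15 Gy with CBLB502 against CBLB502, which also gave 1 without the 6 libraries that stood apart. The share of all genes called moved with the setting too. For 15 Gy 24 h against 6 h it was 32.2% in the main fit, 35.9% with DESeq2 and 18.2% fitted alone. The cause of the moved counts was not tested.

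Leaving out 1 library gave 8 to 9 called members for 6 Gy 6 h against control, 7 to 17 for 15 Gy 6 h, 3 to 11 for 6 Gy 24 h, 1 to 4 for 15 Gy 24 h, 4 to 5 for 15 Gy 3 d (2 higher and 3 lower without its replicate 1, with a median of -0.28), 1 to 2 for CBLB502, 1 to 2 for 15 Gy with CBLB502 and 7 to 17 for 6 Gy with CBLB502. It gave 0 to 0 for either dose with CBLB502 against the dose alone, 1 to 2 for 15 Gy with CBLB502 against CBLB502, 16 to 27 for 15 Gy against 6 Gy at 6 h, 8 to 16 for 24 h against 6 h (7 higher and 1 lower without replicate 3 of 15 Gy 6 h, with a median of 0.22), 9 to 25 for 3 d against 24 h, and 0 to 1 and 0 to 0 for the interactions with 15 Gy and 6 Gy.

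Replicate numbers did not pair the libraries: correlations of same-numbered libraries were -0.26 to 0.25, and in 0 of 14 comparisons were all over 0.1. With the replicate block, 12 members were called at 6 Gy 6 h, 11 at 15 Gy 6 h, 7 at 6 Gy 24 h and 17 for the dose difference, and the other counts were the same. Of 114 calls of members over the 16 comparisons, 110 held with the block and 73 with the compared groups fitted alone.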

Other observations

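The summed counts of the lambda interferon genes Ifnl2 and Ifnl3 were uneven within groups. They were above 0 in 6 groups, and in 6 of 6 the library with the most counts had the highest score over the 42 members of its group. At 15 Gy 3 d replicate 1 had 122 counts and a score of 1.17, and at 15 Gy 6 h replicate 3 had 31 counts and a score of 0.39. At 6 Gy 24 h replicate 3 had 32 counts and a score of 0.48. The 3 libraries of 6 Gy 6 h had 0 counts with scores of 0.50 to 0.99. The pattern was noticed in these values and no test was run, and most counts were too low to compare between libraries.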
